A study of Mus musculus with 12 samples.

Results

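The interferon response and nucleic acid sensing genes followed here are 36 named mouse genes among the 20614 genes of an RNA sequencing table of midbrain astrocytes. They were picked by symbol after an earlier look at the same libraries, in which Trex1 was lower in both Cd38 mutant genotypes, and the question was whether interferon genes rise where Trex1 is low. By known role, 3 of the genes clear or edit nucleic acids, 5 act in RNA sensing, 4 encode interferon receptor chains, 8 encode kinases and transcription factors of the pathway and 16 encode interferon-induced effectors. All 36 were found in the table, and 34 averaged over 5 TPM in one or both of the genotypes compared, the filter used for testing. TPM is expression per transcript length scaled to the same sum in every library, so levels can be compared between genes.

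The libraries came from astrocytes of male mice aged 12 to 14 months: 3 of Cd38+/+ mice, 3 of Cd38+/- mice and 6 of Cd38-/- mice. Cd38 encodes an enzyme of the cell surface that consumes NAD, and the mutation is a global germline deletion, so every cell type of the mutant mice carries it and the comparison is not specific to astrocytes. No group received a treatment. Cells from dissected striatum, thalamus and substantia nigra were first cleared of endothelial cells and of myelin and oligodendrocytes on magnetic beads. Microglia were then removed with beads carrying an antibody to CD11b, and astrocytes were captured with an antibody to the antigen ACSA-2. The sources used here do not say whether each library is a different mouse, so the p-values measure only the spread between libraries.

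Cells detect foreign or misplaced nucleic acids with sensors such as cGAS for DNA and RIG-I and MDA5 for RNA. These signal through the adaptors STING and MAVS to IRF transcription factors, which switch on type I interferon. Secreted interferon binds its receptor, activates the kinases JAK1 and TYK2, and drives transcription factors such as STAT2 and IRF9 onto interferon-stimulated response elements in the promoters of effector genes. TREX1 is a DNA exonuclease that degrades DNA in the cytosol, and its loss in people and mice is a known trigger of chronic interferon signaling through cGAS and STING. Astrocytes express interferon receptors and can both make and answer interferon.

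The promoters of several members carry the letters of the response element. RefSeq promoter windows (GRCm38.p6, 250 bases before to 50 bases after each start site) were found for 33 of the 36 members, and those of Ifi27, Usp18 and Parp14 were not used here. The core of the element (GAAA, any 2 bases, GAAA), searched on both strands, occurred in 13 of these 33 members (39.4%) and in 3.99% of the 27025 genes with such windows. By role, the match was found in 9 of 13 effectors, 2 of 5 RNA sensing genes, 2 of 8 kinases and transcription factors, and none of the 4 receptor and 3 clearance genes, Trex1 among the latter. The letters TTCNNNGAA of the gamma-activated sequence occurred in 12 of the 33 members (36.4%) and in 9.55% of genes, and overlapped a match of the core in Bst2 and Ifitm3. A match describes letters and not a working site. The windows below lie before the start site of members whose levels recur in the following paragraphs, each read along its gene's strand, with the core, or its reverse complement, in capitals.
Isg15 (chr4:156200855-156200916, minus strand): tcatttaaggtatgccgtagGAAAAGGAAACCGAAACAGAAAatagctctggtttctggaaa
Ifit1 (chr19:34640765-34640833, plus strand): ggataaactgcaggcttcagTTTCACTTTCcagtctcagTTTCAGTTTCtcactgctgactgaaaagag
Ifit3 (chr19:34583353-34583436, plus strand): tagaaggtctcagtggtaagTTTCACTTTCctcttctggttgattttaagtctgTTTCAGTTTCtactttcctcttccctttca
Rsad2 (chr12:26456543-26456592, minus strand): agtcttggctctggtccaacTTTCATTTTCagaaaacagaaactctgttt
Oas1a (chr5:120907526-120907565, minus strand): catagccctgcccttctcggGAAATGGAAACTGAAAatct
Bst2 (chr8:71537567-71537622, minus strand): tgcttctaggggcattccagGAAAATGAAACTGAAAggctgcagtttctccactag
Ifitm2 (chr7:140955978-140956027, minus strand): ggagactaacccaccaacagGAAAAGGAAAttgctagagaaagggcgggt
Isg15 holds 3 overlapping copies of the core, Oas1a and Bst2 hold 2 overlapping copies each, and Ifit1 and Ifit3 hold 2 separate copies each.

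The labels were checked on Cd38 itself, which stood at 104.88 to 148.64 TPM in the Cd38+/+ libraries, 90.36 to 90.8 TPM in Cd38+/- and 8.54 to 21.86 TPM in Cd38-/-, with no overlap between genotypes. The Cd38+/+ libraries stand apart in detection: 13160 to 13516 genes were above 0 in them, 16160 to 16327 in Cd38+/- and 15920 to 17906 in Cd38-/-. Read depth is unknown in this unit. Astrocyte markers (12 genes such as Gja1 and Aldh1l1, none at 0) summed to 11998 to 20330 TPM per library and microglial markers (13 genes) to 111 to 224 TPM, and the defining microglial markers Cx3cr1 and Tmem119 were at 0 in all Cd38+/+ libraries. Endothelial markers (11 genes, none at 0 throughout), from a cell type that also expresses interferon-induced genes, summed to 692 to 3126 TPM in Cd38+/+, 568.4 to 1118 TPM in Cd38+/- and 609 to 1976 TPM in Cd38-/-. Oligodendrocyte lineage markers (10 genes, with Mog at 0 in all Cd38+/+ libraries) summed to 1584 to 7490 TPM in Cd38+/+, 3494 to 11370 TPM in Cd38+/- and 3462 to 18031 TPM in Cd38-/-. Choroid plexus and ependymal markers (9 genes, with Kl at 0 in all Cd38+/+ libraries) summed to 2816 to 4863 TPM in Cd38+/+, 2955 to 10132 TPM in Cd38+/- and 3449 to 6243 TPM in Cd38-/-. In such bulk samples fewer cells of a type and less RNA per cell cannot be told apart.

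Trex1 was measured at 34.11, 37.07 and 39.37 TPM in the 3 Cd38+/+ libraries. In the Cd38+/- libraries it was 16.9, 15.72 and 17.49 TPM, and in Cd38-/- it ran from 15.44 to 21.31 TPM with a median of 17.2. Every mutant library lay below every Cd38+/+ library, with a log2 fold change on the log2(TPM + 1) scale of -1.10 in Cd38+/- and -1.01 in Cd38-/-. These values are the reason the genes were chosen and are given without a test. The mutant genotypes overlapped each other in Trex1.

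The level of Trex1 may depend on how reads were divided with its neighbor, which was not tested. Trex1 (chr9:109057933-109059734, minus strand, GRCm38) lies wholly within the annotated span of Atrip (chr9:109057933-109074124) on the same strand, and Atrip encodes a partner of the DNA damage kinase ATR. Atrip was 9.64, 8.47 and 28.14 TPM in Cd38+/+, 23.85, 19.71 and 20.46 TPM in Cd38+/-, and 17.23 to 25.47 TPM (median 20.2) in Cd38-/-. So 2 of the 3 Cd38+/+ libraries had less Atrip than any mutant library, and the remaining one had more. Trex1 made up 58.3 to 81.4% of the summed TPM of the pair in Cd38+/+, 41.5 to 46.1% in Cd38+/- and 39.4 to 53.1% in Cd38-/-. The sum itself was 43.75, 45.54 and 67.51 TPM in Cd38+/+, 35.43 to 40.75 TPM in Cd38+/- and 35.02 to 42.75 TPM in Cd38-/-. All mutant libraries were below all Cd38+/+ libraries in this sum, by a smaller step. TPM is per transcript length, and the median annotated length is 1069 bases for Trex1 and 2321 bases for Atrip. The sum therefore also depends on how reads were divided, and it cannot show whether the pair as a whole was lower. Shisa5, the next gene on the opposite strand, differed from Cd38+/+ by -0.02 ± 0.16 in Cd38+/- and -0.03 ± 0.12 in Cd38-/- on the log2 scale. For single genes, here and below, ± after a difference on the log2 scale is the standard error from the model fitted with limma.

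**Figure D1:**
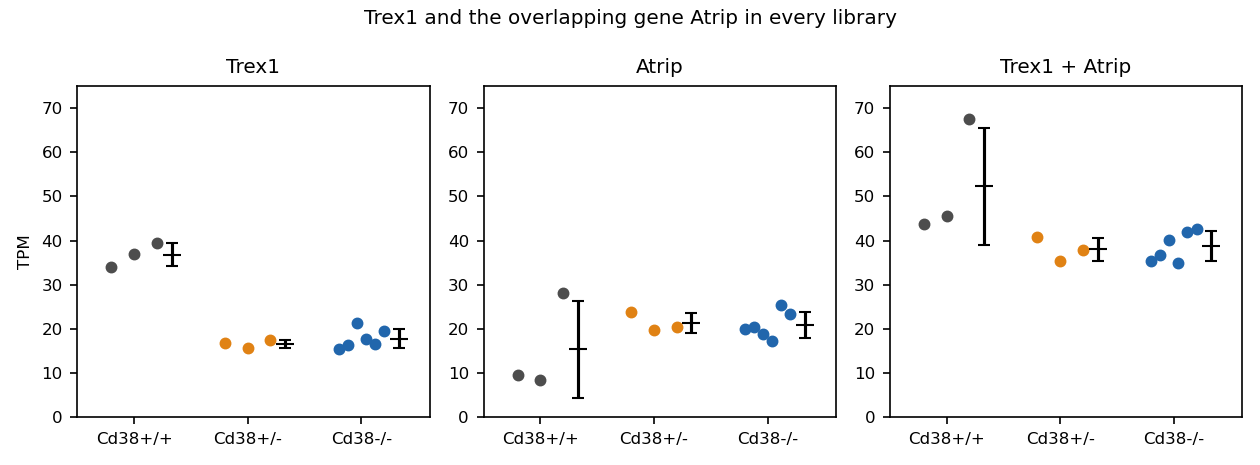
TPM of Trex1, of Atrip, which spans Trex1 on the same strand, and of their sum, with 1 point per library for the 3 genotypes and a bar for the mean and SD beside the points. All 9 mutant libraries have 15.44 to 21.31 TPM of Trex1 against at least 34.11 TPM in Cd38+/+, while the step in the sum is from at most 42.75 to at least 43.75 TPM. The sum also depends on how reads were divided, since the transcripts differ in length.

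Next, the mean log2(TPM + 1) over all 36 genes was taken in each library. It was 5.19, 4.64 and 5.04 in the Cd38+/+ libraries, 5.33, 4.90 and 4.98 in Cd38+/-, and 4.90 to 5.32 (median 5.08) in Cd38-/-. The genotypes therefore overlapped, with means of 4.96 ± 0.28 (SD, n = 3), 5.07 ± 0.23 (n = 3) and 5.09 ± 0.15 (n = 6). The difference from Cd38+/+ was 0.11 in Cd38+/- and 0.13 in Cd38-/-, smaller than these SDs, and it was -0.04 and -0.03 without Cd38+/+ replicate 2. It was also -0.02 in Cd38+/- without Cd38+/- replicate 1. Over the 35 members other than Trex1 the means were 4.95 ± 0.29, 5.10 ± 0.24 and 5.11 ± 0.16, and the differences from Cd38+/+ were 0.15 and 0.16. Over all genes tested the median log2 fold change was 0.18 in Cd38+/- and 0.15 in Cd38-/-, and after median-ratio scaling, which sets each library by its typical gene, the difference of the mean over all 36 was -0.02 and 0.01.

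**Figure D2:**
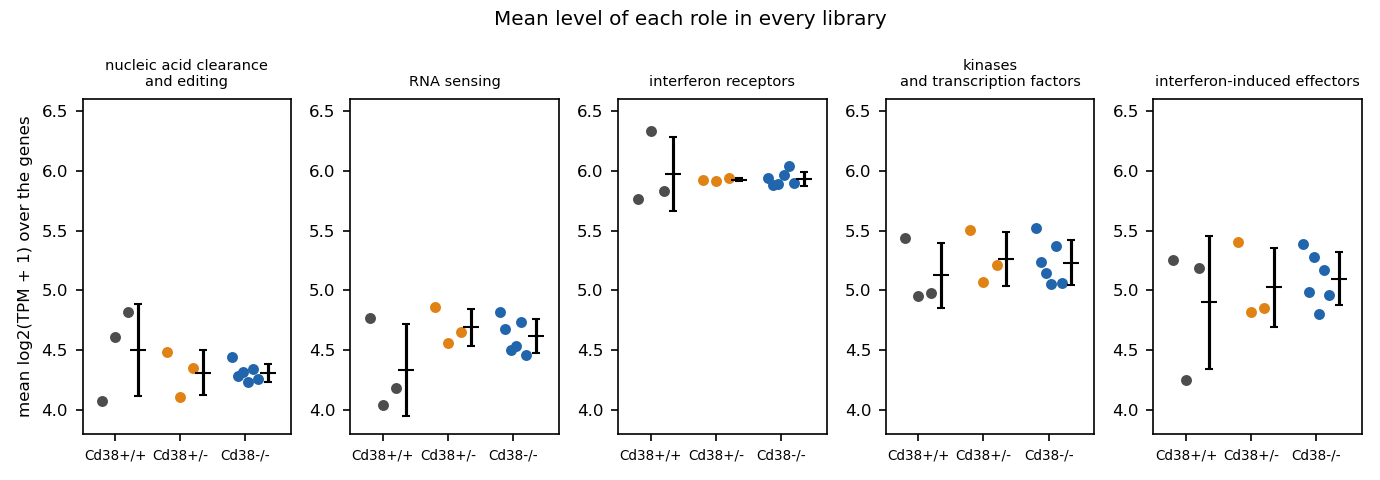
Mean log2(TPM + 1) over the genes of each role, with 1 point per library for the 3 genotypes and a bar for the mean and SD beside the points. The genotypes overlap in every role, and the effectors range from 4.25 to 5.25 within Cd38+/+ alone.

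Tested gene by gene, none of the 33 members that passed the filter, Trex1 not among those tested, was called in either mutant genotype. A call needed a Storey q below 0.05 in limma and a fold change of 1.2 or more. These calls come from a fit made here and not from the authors' own tests. Under it, Cd38 itself was not called in Cd38+/- (log2 fold change -0.44). In Cd38+/- 0 of 33 members were called, where 0% of all 11763 genes were called. There, 17 members were higher and 16 lower with a median log2 fold change of 0.07, where 64.4% of all genes were higher. An unadjusted p under 0.05 was reached by 2 members, Jak1 and Ifitm2, against 13.5% of all genes. In Cd38-/- 0 of 33 members were called, where 8.28% of 11722 genes were called (752 higher and 218 lower, or 553 and 392 after median-ratio scaling). There, 16 members were higher and 17 lower with a median of -0.01, where 64.3% of all genes were higher. The unadjusted p was under 0.05 for 4 members, Ddx58, Jak1 and Rsad2 higher and Ifitm2 lower, against 23.6% of all genes (17.6% higher and 5.99% lower).

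The confidence intervals show how large a rise these libraries could have missed. In Cd38-/-, the 95% interval ended below a 2-fold rise for 24 of the 33 members, against 66.7% of all genes, and reached it for Ddx58, Trim25, Irf7, Ifngr2 and the effectors Ifit2, Usp18, Oasl2, Xaf1 and Rsad2. In Cd38+/- it ended below a 2-fold rise for 21 members, against 52.6% of all genes, and for the other 12 it included a doubling.

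**Figure D3:**
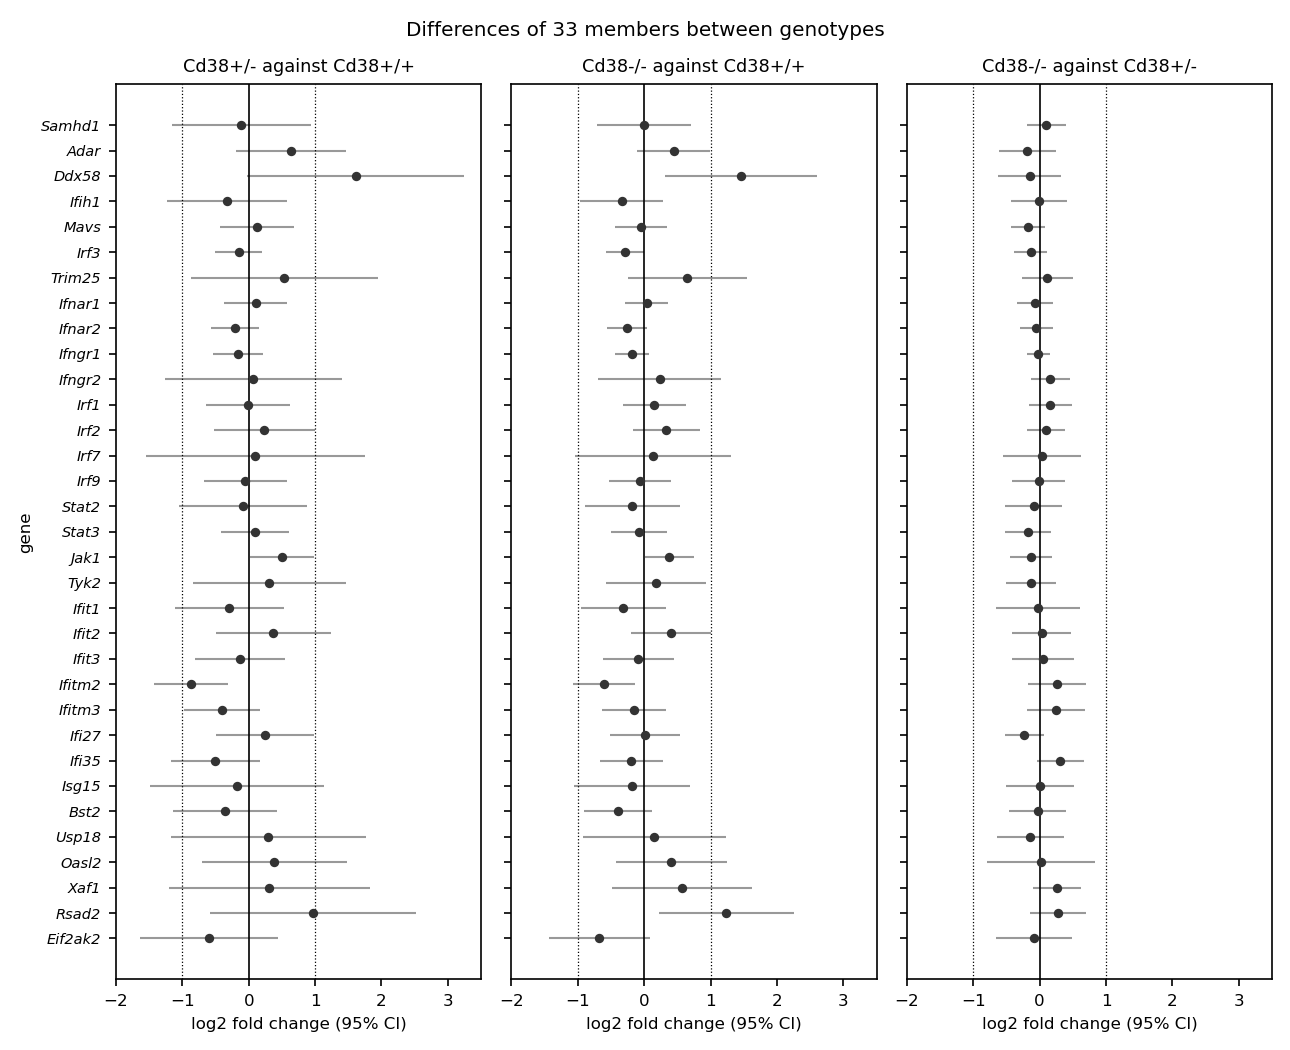
Log2 fold change on the log2(TPM + 1) scale with its 95% confidence interval for the 33 members tested without Trex1, 1 row per gene, in the 3 comparisons of genotypes, with dotted lines at -1 and 1. Intervals are widest in Cd38+/- against Cd38+/+ (Ddx58 from -0.03 to 3.25) and all lie between -1 and 1 in Cd38-/- against Cd38+/-.

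The clearance and editing genes besides Trex1 gave no call. Samhd1, a phosphohydrolase that limits the supply of deoxynucleotides, was 10, 16.15 and 36.57 TPM in Cd38+/+, a range that holds all 9 mutant libraries (15.22 to 20.51 TPM). Adar, which edits adenosines in double-stranded RNA, was 11.47, 21.46 and 13.9 TPM in Cd38+/+, 17.85 to 30.98 TPM in Cd38+/- and 16.01 to 28.33 TPM in Cd38-/-. The log2 fold change of Adar was 0.63 ± 0.37 in Cd38+/- and 0.44 ± 0.26 in Cd38-/-, and neither was a call.

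Among the RNA sensing genes, Ddx58 had the highest log2 fold change of all members in both mutant genotypes. It encodes RIG-I, the sensor of short double-stranded RNA ends, and was 15.61, 1.06 and 9.03 TPM in Cd38+/+, 27.73, 16.92 and 17.91 TPM in Cd38+/-, and 13.55 to 23.7 TPM (median 18.65) in Cd38-/-. Cd38+/- lay above Cd38+/+ without overlap, whereas Cd38-/- overlapped Cd38+/+ replicate 1. The log2 fold change was 1.61 ± 0.72 in Cd38+/- and 1.46 ± 0.52 in Cd38-/- (q = 0.0719), with Cd38+/+ replicate 2 far below every other library. The q-value fell to 0.0168 without Cd38+/+ replicate 1 and 0.0346 without Cd38+/+ replicate 3, and ranged up to 0.400 over all alternatives. Without Cd38+/+ replicate 2 the log2 fold change in Cd38-/- was 0.57, below those of Ifngr2 (0.95), Adar (0.68) and Irf2 (0.66) without that library.

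The other sensing genes differed less. Ifih1, which encodes MDA5, the sensor of long double-stranded RNA, was 8.76 to 12.59 TPM in Cd38+/+ and 5.9 to 11.38 TPM in the mutant libraries. Mavs, the mitochondrial adaptor of both sensors, stayed between 41.02 and 65.5 TPM in every library. Trim25, a ubiquitin ligase that acts with RIG-I, was 10.34, 7.8 and 1.78 TPM in Cd38+/+ and 6.96 to 10.97 TPM in the mutants. Irf3, the transcription factor downstream of MAVS and STING, was 122.65, 132.58 and 120.72 TPM in Cd38+/+, 105.38, 121.79 and 110.99 TPM in Cd38+/-, and 88.12 to 118.57 TPM (median 99.05) in Cd38-/-. Irf3 was the only member besides Trex1 whose Cd38-/- and Cd38+/+ libraries did not overlap, where 11.8% of all genes did not (3.62% with Cd38-/- lower), and its log2 fold change of -0.29 ± 0.13 was not a call.

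Ifnar1 and Ifnar2 form the receptor for type I interferon and Ifngr1 and Ifngr2 that for interferon gamma. Ifnar1 was 57.78 to 76.67 TPM and Ifngr1 84.62 to 108.66 TPM over all 12 libraries. Ifnar2 was 118.7, 124.71 and 108.7 TPM in Cd38+/+ and 97.24, 103.13 and 102.78 TPM in Cd38+/-, without overlap, a log2 fold change of -0.21 ± 0.16. In Cd38-/- it ran from 84.61 to 112.13 TPM and overlapped Cd38+/+. Ifngr2 was 7.83, 52.5 and 15.65 TPM in Cd38+/+, so that the 18.2 to 24.38 TPM of all mutant libraries fell within the Cd38+/+ range.

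Of the kinases, Jak1, which serves both receptors, was 73.85, 98.47 and 67.57 TPM in Cd38+/+, 131.65, 95.26 and 113.57 TPM in Cd38+/-, and 87.79 to 129.99 TPM (median 99.6) in Cd38-/-. Each mutant genotype overlapped Cd38+/+ only through replicate 2 of Cd38+/+, and the mutant genotypes overlapped each other. The log2 fold change was 0.51 ± 0.21 in Cd38+/- (q = 0.226) and 0.38 ± 0.17 in Cd38-/- (q = 0.114), and in the latter q was 0.0394 without that library. Over all alternatives the q of Jak1 ranged up to 0.692 in Cd38+/- and 0.551 in Cd38-/-. Tyk2, its partner at the type I receptor, was 4.25 to 14.34 TPM in Cd38+/+ and 9.07 to 14.83 TPM in the mutants.

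The transcription factors overlapped between genotypes throughout. Stat2 and Irf9, which act together at the response element, had log2 fold changes between -0.18 and -0.05 in both mutant genotypes. Irf9 shares 123 bases of its annotated span with Rnf31 on the same strand, so its counts may include reads of that gene. Stat3, Irf1 and Irf2 differed from Cd38+/+ by -0.08 to 0.33 on the log2 scale. Irf7, the factor that amplifies interferon production and is itself induced by interferon, was 57.53, 5.55 and 11.73 TPM in Cd38+/+, 24.8, 11.84 and 17.17 TPM in Cd38+/-, and 11.02 to 22.87 TPM (median 19.2) in Cd38-/-, so the Cd38+/+ libraries alone spanned more than the mutants did.

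The 16 effectors were the most variable role between Cd38+/+ libraries. In Cd38+/- 6 of the 14 tested effectors were higher and 8 lower with a median log2 fold change of -0.16. The same counts held in Cd38-/- with a median of -0.12. Over all genes tested, 64.4% were higher in Cd38+/- and 64.3% in Cd38-/-. Ifi27, Ifitm3 and Ifit3 had the highest mean levels of all members, 487, 445 and 167 TPM, and Ifi27 and Ifitm3 ranked 229 and 269 among the genes of the table. Ifi27, a small mitochondrial protein, was 251.2 to 622.03 TPM in Cd38+/+ and 382.6 to 656.78 TPM in the mutants. Ifitm3, which blocks viral entry at endosomes, was 340.08 to 592.58 TPM in Cd38+/+ and 313.47 to 590.78 TPM in the mutants.

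Ifitm2, a relative of Ifitm3, was the effector with the smallest p in both mutant genotypes, and it was lower. It was 142.22, 87.04 and 113.55 TPM in Cd38+/+, 78.18, 54.43 and 52.86 TPM in Cd38+/-, and 55.86 to 108.07 TPM (median 69.03) in Cd38-/-. All Cd38+/- libraries lay below all Cd38+/+ libraries, and Cd38-/- overlapped both. On the log2 scale the difference was -0.87 ± 0.25 in Cd38+/- (q = 0.177, and 0.0281 with all 12 libraries in one fit) and -0.61 ± 0.21 in Cd38-/- (q = 0.0682). In Cd38-/- q was 0.0295 without Cd38+/+ replicate 2 and 0.0441 without Cd38-/- replicate 3. Ifitm2 was not a call in 19 of 23 alternatives in Cd38-/- (q up to 0.479) or in 19 of 20 in Cd38+/- (q up to 0.679). In each genotype the highest Ifitm2 value came from the library with the highest endothelial marker sum. These were Cd38+/+ replicate 1 (3126 TPM), Cd38+/- replicate 1 (1118 TPM) and Cd38-/- replicate 3 (1976 TPM). The order of the other libraries differed from that of the sums. Cd38+/+ replicate 3 had more Ifitm2 than replicate 2 at a lower sum (692 against 1831 TPM). Cd38+/- replicate 2 had more than replicate 3 (54.43 against 52.86 TPM), also at a lower sum (568.4 against 814 TPM). Cd38-/- replicate 2, with the lowest sum of its genotype (609 TPM), had 83.93 TPM of Ifitm2, the second highest there. The part of endothelial RNA in the difference was not tested. Nearly the whole annotated span of Ifitm2 overlaps a gene model on the same strand, Gm45717, that is not in the table.

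Rsad2 had the highest fold change among the effectors. It encodes viperin, an enzyme that makes a chain-terminating nucleotide against viral RNA synthesis, and was 12.46, 2.74 and 1.49 TPM in Cd38+/+, 10.46, 8.56 and 7.49 TPM in Cd38+/-, and 7.92 to 13.67 TPM (median 10.8) in Cd38-/-. The mutant libraries were close to Cd38+/+ replicate 1 and above the other Cd38+/+ libraries. On the log2 scale the difference was 0.96 ± 0.68 in Cd38+/- and 1.24 ± 0.47 in Cd38-/- (q = 0.0794), and in Cd38-/- it was 1.95 without Cd38+/+ replicate 1 (q = 0.00415) and 0.73 without Cd38+/+ replicate 3 (q = 0.116).

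Isg15, a ubiquitin-like modifier, and Usp18, the protease that removes it and damps receptor signaling, are classic readouts of type I interferon. Isg15 was 43.81, 8.19 and 26.44 TPM in Cd38+/+, 29.5, 16.9 and 13.21 TPM in Cd38+/-, and 14.86 to 26.84 TPM (median 18.3) in Cd38-/-. Usp18 was 37.43, 5.3 and 35.07 TPM in Cd38+/+, 31.7, 20.44 and 21.97 TPM in Cd38+/-, and 16.33 to 28.62 TPM (median 22.5) in Cd38-/-. Both genes had their highest and lowest value of all 12 libraries in Cd38+/+. The log2 fold change of Isg15 was -0.18 in both mutant genotypes, with 95% intervals of -1.49 to 1.13 in Cd38+/- and -1.06 to 0.70 in Cd38-/-. Xaf1, a pro-apoptotic effector, had the same pattern, at 47.52, 4.91 and 20.27 TPM in Cd38+/+ and 17.96 to 33.38 TPM in the mutants.

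The Ifit genes encode proteins that bind foreign RNA ends. Ifit1 was 27.04 to 53.72 TPM in Cd38+/+, 24.39 to 49.07 TPM in Cd38+/- and 20.92 to 53.77 TPM in Cd38-/-. Ifit3 was 108.77 to 222.48 TPM in Cd38+/+, 125.79 to 211.55 TPM in Cd38+/- and 109.54 to 224.39 TPM in Cd38-/-. Both had nearly equal ranges in the 3 genotypes. Ifit2 was 10.32, 7.62 and 9.59 TPM in Cd38+/+ and 13.43, 10.88 and 12.1 TPM in Cd38+/-, without overlap, a log2 fold change of 0.37 ± 0.38 that was not a call, and was 8.96 to 16.13 TPM in Cd38-/-.

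The remaining effectors overlapped between genotypes with 1 exception. Ifi35 was 27.44, 28.11 and 42.86 TPM in Cd38+/+ and 26.28, 19.16 and 22.07 TPM in Cd38+/-, a log2 fold change of -0.51 ± 0.30 with no overlap, but 23.15 to 36.29 TPM in Cd38-/-. Bst2, which encodes tetherin, and Eif2ak2, which encodes the RNA-activated kinase PKR, had log2 fold changes of -0.36 and -0.59 in Cd38+/- and -0.39 and -0.68 in Cd38-/-. Oasl2, of the oligoadenylate synthetase family, was 22.2 to 71.64 TPM in Cd38+/+, 35.89 to 96.1 TPM in Cd38+/- and 28.39 to 102.77 TPM in Cd38-/-. Oas1a, which makes the second messenger of RNase L, was 0.09, 0 and 4.26 TPM in Cd38+/+, 3.7, 2.96 and 2.77 TPM in Cd38+/- and 2.46 to 6.24 TPM in Cd38-/-. Parp14, an ADP-ribosyltransferase, was 0.04, 0 and 5.98 TPM in Cd38+/+, 6.26, 4 and 4.25 TPM in Cd38+/- and 2.99 to 6.41 TPM in Cd38-/-. These last 2 genes were under the filter and were not tested, and their Cd38+/+ values of or near 0 come from libraries that list 193 to 336 of 11845 expressed genes at 0, against 4 to 14 in the mutant libraries.

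Among the 33 members, 5 had Cd38+/- and Cd38+/+ libraries that did not overlap (Ddx58 and Ifit2 were higher, and Ifnar2, Ifitm2 and Ifi35 lower), where 22.5% of all genes did not (15.5% higher and 6.94% lower). This is 15.2% of the members, and after median-ratio scaling it was 24.2% of members against 21.8% of genes. Ddx58, Ifit2, Ifnar2, Ifitm2 and Ifi35 all overlapped Cd38+/+ in Cd38-/-. The count was 10, 12 and 10 when Cd38+/+ replicate 1, 2 or 3 was left out, where 37.6, 38.8 and 39.7% of all genes did not overlap, and 8 when Cd38+/- replicate 1 or 2 was, against 27.5 and 31.5%. For Cd38-/- against Cd38+/+ the single member, Irf3, became 4, 9 and 4 when those Cd38+/+ libraries were left out, against 24.2, 24.8 and 28.5% of all genes (9 members are 27.3%), and 2 without Cd38-/- replicate 1, 3, 4 or 5, against 12.5 to 15.2%.

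The calls in Cd38-/- depended on which Cd38+/+ library was present. Without replicate 1, 4 members were called and all were higher (Ddx58, Irf7, Rsad2 and Xaf1), while 1829 genes (15.5%) were called in all. Without replicate 2, 8 were called, of which Adar, Irf2, Ifngr2 and Jak1 were higher and Isg15, Bst2, Ifi27 and Ifitm2 lower, among 1931 genes (16.5%, against 24.2% of the members). Without replicate 3, Ddx58 was called higher and Stat2 lower, among 3119 genes (26.5%). Ddx58 is the only member called in more than 1 of these 3 sets. Leaving out Cd38-/- replicate 3 called Ifitm2, lower, and leaving out any other Cd38-/- library called none.

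The Cd38+/+ libraries differed from each other most in the effectors. Cd38+/+ replicate 2 was the lowest of its genotype in 12 of the 16 effectors, where it was the lowest in 34.97% of all genes, and Cd38+/+ replicate 1 was the highest in 10, where it was the highest in 31.0%. Eif2ak2 went the other way, at 11.5, 25.31 and 10.83 TPM. The median SD between Cd38+/+ libraries was 0.69 on the log2 scale over the effectors and 0.49 over all genes, against 0.32 and 0.20 in Cd38+/- and 0.34 and 0.23 in Cd38-/-. The mean of the effectors was 5.25, 4.25 and 5.19 in the Cd38+/+ libraries. Their endothelial sums of 3126, 1831 and 692 TPM did not have the same order, and the part of cell make-up, RNA input or detection in this scatter was not tested.

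Single libraries also stood out in the effectors within the mutant genotypes. Cd38+/- replicate 1 was the highest of its genotype in 15 of the 16 effectors, with a mean of 5.40 against 4.82 and 4.85 in the other libraries. It was also the highest in 60.8% of all genes, and after median-ratio scaling the counts were 13 effectors and 39.1% of all genes. Its choroid plexus and ependymal markers summed to 10132 TPM against 3035 and 2955 TPM in the other libraries, and their part in the effector levels was not tested. Within Cd38-/-, replicate 3 was the highest in 7 effectors, where it was the highest in 10.8% of all genes. Replicate 1 was the highest in 5 effectors and in 36.7% of all genes, and replicate 4 the lowest in 6 effectors and in 27.0% of all genes, shares of a similar size. Replicate 3 also had the highest oligodendrocyte sum of all libraries, 18031 TPM beside 13530 TPM of astrocyte markers. Its border macrophage and leukocyte markers (12 genes) summed to 32.02 TPM, against 2.73 to 10.99 TPM in the other Cd38-/- libraries. The part of these cells in the effector levels was not tested. The effector mean in Cd38-/- ran from 4.80 in replicate 4 to 5.39 in replicate 1. Oasl2, for example, was 28.39 TPM in replicate 4 and 102.77 TPM in replicate 1.

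**Figure D4:**
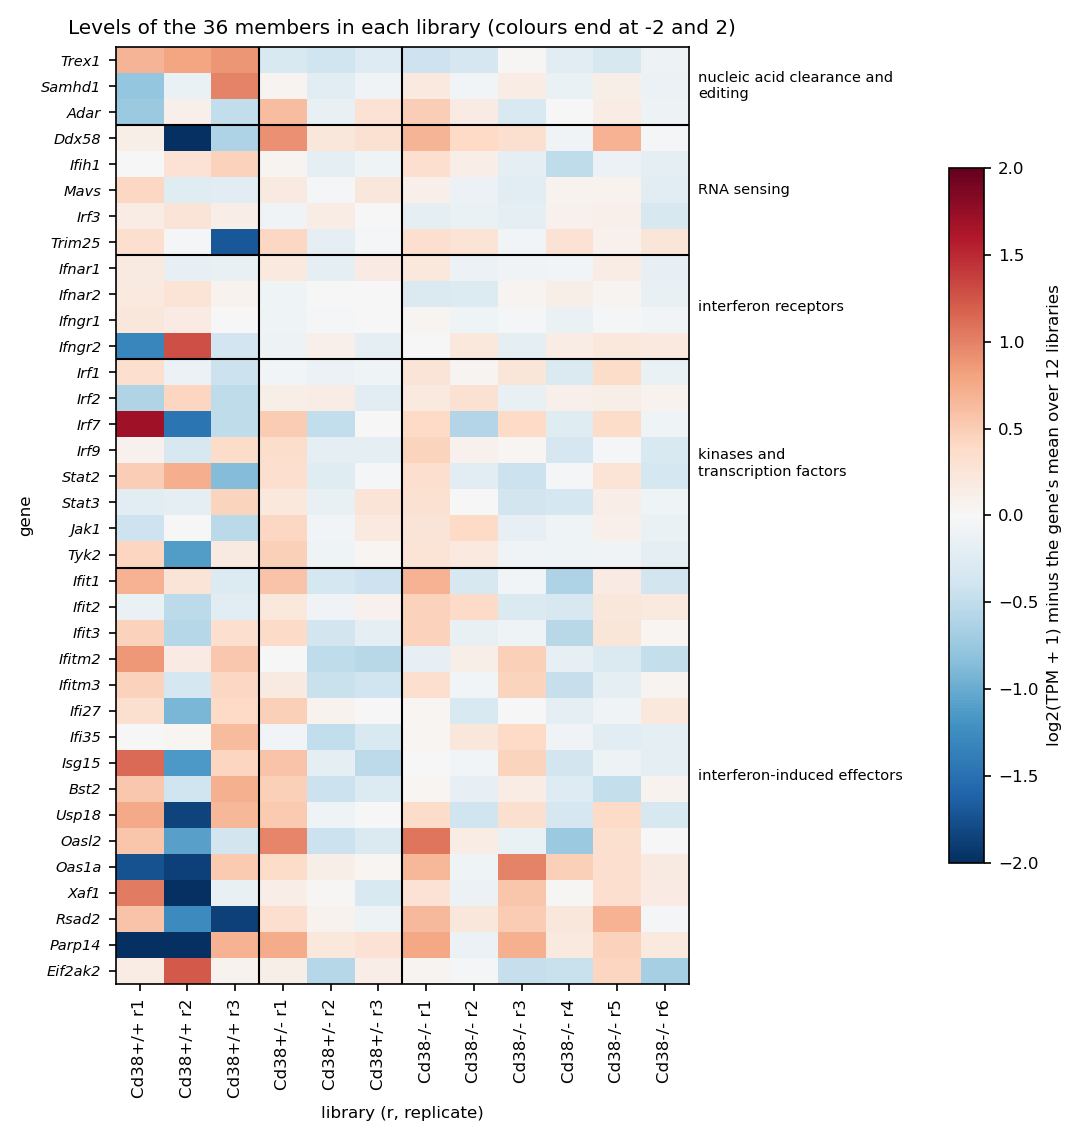
Log2(TPM + 1) of the 36 members in the 12 libraries, minus each gene's mean over the libraries, in red above and blue below that mean, with genes grouped by role and libraries by genotype. Colors end at -2 and 2. Trex1 is red in all 3 Cd38+/+ libraries (at least 34.11 TPM) and blue or near white in the mutants (at most 21.31 TPM), and the strongest colors of the effectors fall in Cd38+/+ replicate 2, the lowest of its genotype in 12 of 16.

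The mutant genotypes were then compared with each other, which leaves out the Cd38+/+ libraries. Of 34 members, Trex1 among them although its level in these libraries chose the genes, 0 were called, where 0.0346% of 11563 genes were called, and 0 reached an unadjusted p under 0.05 in limma, where 11.2% of genes did. No member had libraries without overlap, where 5.73% of genes did. The log2 fold changes lay between -0.23 for Ifi27 and 0.31 for Ifi35. For all 34 members the 95% interval lay between -1 and 1, against 92.7% of all genes, so a 2-fold change between the mutant genotypes fell outside the interval for each of them. Two-sided exact permutation tests of the 36 members gave no p under 0.05, with the smallest at 0.107, where the 9 libraries allow 0.0119. Library quality weights were the exception, under which 11 members were called (8 higher and 3 lower in Cd38-/-) along with 3120 genes in all (32.4% of the members and 27% of genes).

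To place the members in the wider pathway, 185 other genes of sensing, clearance, interferon signaling and interferon response were listed, of which 180 were in the table and 97 or 98 were tested in each comparison. In Cd38+/- none of 97 was called by limma, 10 had an unadjusted p under 0.05 and the median log2 fold change was 0.07. In Cd38-/- 6 of 98 were called higher and 1 lower, where 6.42% of all genes were called higher and 1.86% lower, with a median of 0.14. Between the mutant genotypes none of 97 was called, and 10 had an unadjusted p under 0.05. The 20 interferon ligand genes in the table were all under the filter, and 10 of them were listed at 0 in every library.

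Some of the genes nearest to Trex1 in the pathway were little expressed. Cgas, the sensor of cytosolic DNA, was 0 TPM in all Cd38+/+ libraries and 0.07 to 0.4 TPM in the mutants. Sting1, its adaptor, was 0, 1.3 and 8.34 TPM in Cd38+/+, 6.07, 6.05 and 9.4 TPM in Cd38+/- and 4.1 to 6.07 TPM in Cd38-/-. Tbk1, the kinase that STING and MAVS recruit, was 22.51, 14.04 and 14.74 TPM in Cd38+/+, 34.96, 25.03 and 29.76 TPM in Cd38+/- and 23.2 to 30.52 TPM (median 27.6) in Cd38-/-. All mutant libraries thus had more Tbk1 than any Cd38+/+ library. Over all genes, 15.5% lay above Cd38+/+ without overlap in Cd38+/-, and 962 of 11722 did in Cd38-/-. The log2 fold change of Tbk1 was 0.79 ± 0.32 in Cd38+/- (q = 0.218) and 0.66 ± 0.21 in Cd38-/- (q = 0.0563), neither a call. In Cd38-/- Tbk1 became a call without Cd38+/+ replicate 1 (q = 0.0145) or replicate 3 (q = 0.0468). With all 12 libraries in one fit it was a call in both genotypes (q = 0.0300 in Cd38+/- and 0.0291 in Cd38-/-). It was not a call in 17 of 23 alternatives in Cd38-/- (q up to 0.526) or in 19 of 20 in Cd38+/- (q up to 0.680).

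Zbp1, a sensor of Z-form nucleic acids that is itself induced by interferon, was the gene called lower. It was 11.58, 6.09 and 13.52 TPM in Cd38+/+, 2.36, 1.24 and 1.54 TPM in Cd38+/-, and 1.88 to 3.78 TPM (median 2.52) in Cd38-/-, with a log2 fold change of -1.61 ± 0.38 in Cd38-/- (q = 0.0272). In Cd38+/- the change was -2.03 ± 0.58 (q = 0.177), not a call, although no library overlapped, where 6.94% of all genes lay lower without overlap. There, q was 0.00978 with all 12 libraries in one fit and ranged up to 0.679 over all alternatives. The mutant genotypes share the Cd38+/+ libraries in these comparisons. Zbp1 passed the filter only through Cd38+/+, so it could be tested only as a lower gene.

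Of the 6 genes called higher, Gbp9, Icam1 and Tgtp1 are on the list of other genes induced by interferon gamma and Cmpk2 on that of type I interferon, while Adarb1 and Atad3a are on the clearance and editing list. In the interferon gamma list 13 of 17 tested genes were higher in Cd38-/-. Their median log2 fold change was 0.31, against 0.15 over all genes. In Cd38+/- 11 of 15 were higher with a median of 0.14, against 0.18. Gbp4, Gbp9, Gvin1, Icam1 and Tgtp1 passed the filter in Cd38-/- against Cd38+/+ only through their Cd38-/- level. In Cd38+/-, Gbp9, Icam1 and Tgtp1 passed it only through their Cd38+/- level. Such genes could enter these counts only as higher. Between the mutant genotypes 15 of 17 were higher in Cd38-/- with a median of 0.19, against -0.02, and none was called or had an unadjusted p under 0.05. There, Gbp4 and Gvin1 passed the filter only through Cd38-/-. In the type I list 19 of 30 were higher in Cd38-/- and 16 of 30 in Cd38+/-, with medians of 0.13 and 0.03. Between the mutants 18 of 30 were higher in Cd38-/-, with a median of 0.02. Over all genes tested, 64.3% were higher in Cd38-/- and 64.4% in Cd38+/-, and 45.4% were higher in Cd38-/- between the mutants. These comparisons share libraries. Cmpk2, a mitochondrial nucleotide kinase induced by interferon, was 17.15, 18.75 and 17.94 TPM in Cd38+/+, 34.54, 28.67 and 30.9 TPM in Cd38+/-, and 27.44 to 54.44 TPM (median 37.3) in Cd38-/-, a log2 fold change of 1.02 ± 0.22 in Cd38-/- (q = 0.0198). Atad3a, a mitochondrial membrane ATPase, rose by 0.65 ± 0.17 (q = 0.0330) and Adarb1, which encodes the RNA editing enzyme ADAR2, by 1.26 ± 0.34 (q = 0.0362). Gbp9 and Tgtp1, GTPases of families with near-identical copies, and the adhesion molecule Icam1 were also called (q = 0.0395, 0.0498 and 0.0466), from Cd38+/+ levels of 0 to 4.3 TPM. Gbp9, Tgtp1, Icam1 and Adarb1 passed the filter only through Cd38-/-, so they could be tested only as higher genes. With at least 1 TPM required in every compared library, 4 of the 7 called genes were tested, and all 4 were called. All 7 calls were lost without Cd38-/- replicate 1 (q from 0.0508 to 0.112), replicate 2 (0.0607 to 0.103) or replicate 5 (0.0594 to 0.114), and 6 of them without replicate 6. Those of Gbp9, Tgtp1 and Icam1 were lost without Cd38-/- replicate 3 (highest q 0.0747) or replicate 4 (highest q 0.0674) as well, and those of Tgtp1 and Icam1 without Cd38+/+ replicate 2 (highest q 0.0672).

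Further genes of the wider list were not called or were too low to test. The chemokine Cxcl10 was 6.17, 5.72 and 10.74 TPM in Cd38+/+, 4.18 to 6.85 TPM in Cd38+/- and 4.12 to 19.89 TPM in Cd38-/-. Socs3, a brake on JAK signaling, was 6.55 to 23.96 TPM in Cd38+/+ and 7.53 to 12.21 TPM in the mutants. Mx1 was 0 TPM in all Cd38+/+ libraries and at most 0.57 TPM elsewhere, Oas2 was at most 6.63 TPM, Ifi44 at most 4.6 TPM and Dhx58 at most 3.91 TPM, and these were not tested.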

How the data were processed

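RNA was depleted of ribosomal RNA and converted to cDNA with a SMART-Seq v4 ultra low input kit, and sequenced as 100 bp paired ends. The authors trimmed reads with Trim Galore 0.6.4 (bases of quality under 30 removed, reads over 30 bp kept), mapped them to mm10 with STAR 2.7.1a and estimated expression with RSEM 1.2.28. The deposited unit is TPM per gene, 1 column per library, and columns were not merged here. Neither the strand setting nor the annotation is given in the sources used here, so reads of overlapping genes and close paralogs (Ifitm2 and Ifitm3, the Ifit, Oas, Gbp and Tgtp families) may be divided with error. TPM keeps no read depth, so no counting interval or limit for a 0 is given.

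For each pair of genotypes, genes averaging over 5 TPM in one or both were fitted on log2(TPM + 1) with limma 3.58.1 (R 4.3.3, eBayes with a trend), which understates changes of low genes. Calls needed a Storey q below 0.05 and a fold change of 1.2 or more, and percentages beside counts of members are over all genes tested. Single members were also compared by two-sided exact permutation tests between the mutant genotypes. The procedure was tested on simulated data. Genotypes came from the sample labels, and gene positions from GENCODE vM21 on GRCm38. Members, roles, lists and tests were chosen with earlier results of these data known, and Trex1 was left out of tests and member counts against Cd38+/+. All members are described, with fixed genes of the wider lists and up to 6 further genes per comparison with the smallest q among those called. In the Cd38-/- comparison 7 were called, and all are named, 1 beyond that rule. The values of a further gene are not reported here. Alternatives were pseudocounts of 0.1 and 5, other filters and scalings, Benjamini-Hochberg adjustment, eBayes without a trend, all 12 libraries in one fit, a replicate block, library quality weights (statmod 1.5.0), removal of length and GC trends (a spline with 4 degrees of freedom), and leaving out each library. Leaving out every replicate 1 library was added after the data were seen.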

Additional observations from a re-analysis of the deposited data

How the results depend on the processing

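TPM gives no read depth, and the Cd38+/+ libraries detect the fewest genes and scatter most, so comparisons with them are the least precise. The cause of each shift below was not tested. With all 12 libraries in one fit 1 member was called in Cd38+/- (Ifitm2) and 3 in Cd38-/- (Ddx58, Rsad2 and Ifitm2), against 12.4 and 15.5% of all genes, and 3 were called lower in Cd38-/- after removal of length and GC trends (Ifih1, Ifngr1 and Ifitm2), a setting that calls 427 genes higher and 892 lower in all (11.3%). Library quality weights called 11 members between the mutant genotypes, and 27% of genes. With 1 library left out, 0 members were called in Cd38+/-, 0 to 8 in Cd38-/- and 0 between the mutants. The members that did not overlap then numbered 6 to 12, 1 to 9 and 0 to 2. With median-ratio scaling they numbered 8 in Cd38+/- and 2 in Cd38-/- (21.8 and 12.3% of all genes), and 3 in Cd38-/- after trend removal (13.4%). Without every replicate 1 library, they numbered 12 in Cd38+/-, 6 in Cd38-/- and 3 between the mutants (45.9, 26 and 16.6% of genes), and 2 members were called in Cd38-/- (8.75%).

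The difference of the members' mean from Cd38+/+ was -0.18 in both mutant genotypes after trend removal, and otherwise stayed within 1 SD of the reported value. The mean after trend removal was over the 34 members that passed the filter, Trex1 included, and so left out Oas1a and Parp14. It was -0.04 to 0.23 in Cd38+/- and -0.03 to 0.25 in Cd38-/- with 1 library left out, and between the mutants -0.07 to 0.15. The alternatives reversed no direction among the genes whose q is given.

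Over 11845 genes, 1 of 9 same-numbered pairs and 9 of 36 different-numbered pairs of libraries had a correlation of deviations above 0.1. There, 2 of 9 libraries correlated best with their own number. Over 34 members the same-numbered pairs had correlations of 0.51, 0.27, 0.24, 0.47, -0.08, 0.35, 0.67, 0.10 and -0.36. The different-numbered pairs ran from -0.66 to 0.49 over these members. Whether the numbers mark a pairing was not tested. With the replicate number as a block, 0 members were called in each comparison, and Cd38-/- against Cd38+/+ fell from 970 to 2 calls over all genes. The block called none of the 7 other pathway genes (q from 0.318 to 0.415), and neither did the block with trend removal or library quality weights. Benjamini-Hochberg adjustment called 2 of them, Zbp1 and Cmpk2.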
